A study of Mus musculus with 24 samples.

Results

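The cytosolic ribosomal proteins were followed in 24 RNA libraries of mouse bone marrow-derived macrophages. They are the 83 protein-coding genes, of 54532 genes in the deposited table, whose symbol is Rpl or Rps with a number, or Rpsa, Rplp0, Rplp1 or Rplp2, and the S6 kinases (Rps6k) were left out. Large-subunit proteins account for 51 of them and small-subunit proteins for 32. They lie on 19 chromosomes, with 14 on chromosome 7 and 4 on the X chromosome. In all, 81 passed the filter on low counts and were tested. Rpl3l and Rpl10l, copies known from muscle and testis, did not.

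The groups were 4 genotypes of C57BL/6 mice, each untreated or given TGF-β1 at 10 ng/ml for 4 hours, with 3 libraries per group. Smad2fl carried a loxP-flanked Smad2 gene (Smad2 fl/fl) and MyS2KO the same allele with LyzM-Cre. Smad3fl carried a loxP-flanked Smad3 gene (Smad3 fl/fl) and MyS3KO that allele with LyzM-Cre. LyzM-Cre expresses the recombinase from the lysozyme gene Lyz2, which is active in myeloid cells, and the marrow came from animals 2 to 3 months old. All macrophages had been grown with CSF-1 and starved of serum for about 16 hours, controls included. The labels do not say whether the libraries of a group came from separate animals or cultures, so p-values measure only the spread between these libraries. The comparisons ask how TGF-β1 and the loss of each SMAD change the macrophage transcriptome.

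A ribosome holds its proteins in near equal amounts, and their mRNAs are among the most abundant of any growing cell. Those mRNAs start with a C followed by a run of pyrimidines, the terminal oligopyrimidine (TOP) element, through which the kinase complex mTORC1 and the RNA-binding protein LARP1 control their translation and stability together. Each gene has also left many processed pseudogenes in the genome, some nearly identical to its mRNA.

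Libraries held 16868501 to 24918582 counted reads. The summed CPM (counts per 1000000, after TMM scaling) of 9 macrophage markers lay between 15348 and 31490. By contrast, 7 neutrophil markers summed to 0.70 to 16.8, 3 B-cell markers to 0.35 to 4.08 and 6 fibroblast markers to 2.85 at most. Sums reached 0.99 for 3 dendritic, 0.89 for 3 erythroid, 0.45 for 4 mast cell and basophil, and 0.23 for 4 T and NK cell markers. Smad2 was not lower in the libraries labelled MyS2KO (log2 change −0.06 ± 0.12 and 0.09 ± 0.12 (SE), adjusted p = 0.924 and 0.891 by edgeR). Smad3 was lower in MyS3KO than in Smad3fl (−1.21 ± 0.14, adjusted p = 6.9e-06, and with TGF-β1 −0.63 ± 0.13, adjusted p = 0.00208), but it stood at 424 ± 48.2 CPM (SD, n = 3) in untreated Smad3fl against 41.4 ± 4.0 in untreated Smad2fl. Untreated Smad3fl thus held 10.2 times the Smad3 CPM of untreated Smad2fl, a larger gap than between Smad3fl and MyS3KO. So untreated MyS3KO also lay above Smad2fl in Smad3 RNA. These counts cover whole genes, so a deleted exon is not seen on its own. Along the leading principal component, over every gene tested, 5 of the 6 Smad3fl libraries lay between 51.1 and 68.7 and untreated Smad3fl library 3 at 3.28, beside the other 18 at −53.5 to 15.3.

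Ribosomal protein mRNAs were high in all groups and lowest in Smad3fl. They took 2.18 ± 0.09% of counted reads in untreated Smad2fl (libraries 1 to 3 at 2.08, 2.26 and 2.20%) and 1.88 ± 0.12% with TGF-β1 (2.01, 1.78 and 1.83%). In the libraries labelled MyS2KO the share was 2.20 ± 0.22% untreated (2.12, 2.04 and 2.44%) and 1.94 ± 0.25% with TGF-β1 (1.83, 1.75 and 2.22%). In Smad3fl it was 1.18 ± 0.30% untreated (1.14, 0.90 and 1.49%) and 1.09 ± 0.10% with TGF-β1 (1.10, 0.98 and 1.17%). MyS3KO stood at 1.99 ± 0.34% untreated (1.61, 2.26 and 2.09%) and 2.02 ± 0.16% with TGF-β1 (1.88, 1.99 and 2.20%). All 6 Smad3fl libraries lay below all 18 others, and untreated Smad3fl library 3 came nearest to them. In bulk RNA, fewer cells of a type and less of an mRNA per cell cannot be told apart.

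**Figure D1:**
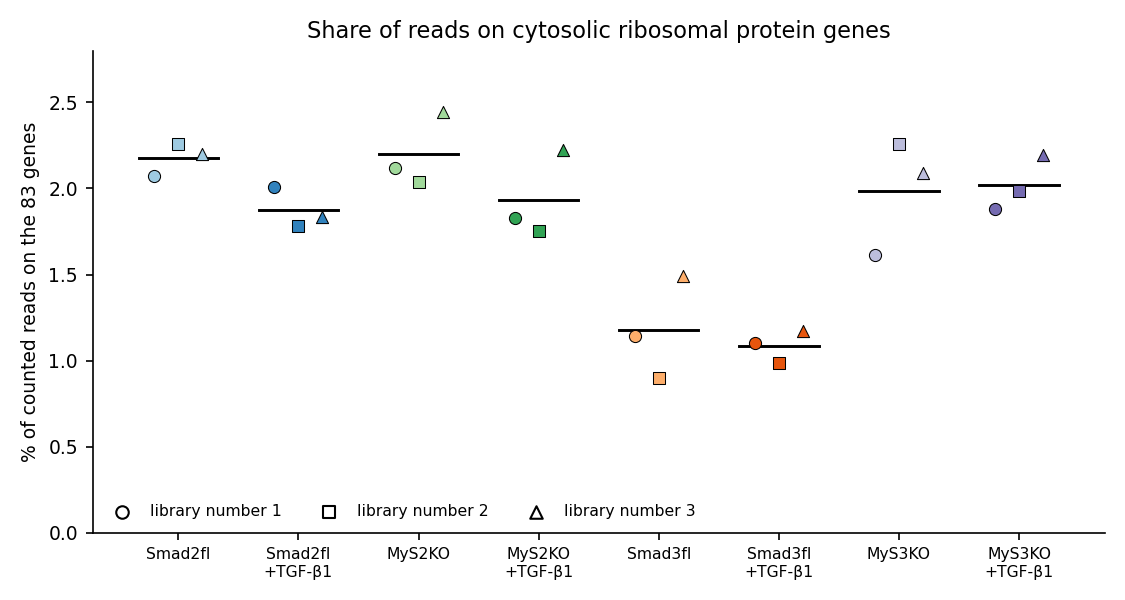
Percent of counted reads on the 83 ribosomal protein genes in each library (points, shaped by library number), with the mean of each group (line). The Smad3fl libraries lie between 0.90 and 1.49% and all others between 1.61 and 2.44%.

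Levels per length, in the deposited FPKM (fragments scaled to transcript length and library size), spanned a wide range around a median member mean of 272. Over the 24 libraries, 70 members averaged more than 100 FPKM. The highest were Rplp0, the base of the ribosomal stalk that binds elongation factors (866 FPKM, libraries from 238 to 1347), Rps14, a platform protein of the small subunit (818, from 434 to 1220), and Rpl10, which is added last to the large subunit (794, from 433 to 1048). These ranges overlap, so their order is not resolved. Rps6, the small-subunit protein phosphorylated by S6 kinase, averaged 357 FPKM, Rpsa, the laminin receptor homologue of the small subunit, 451, and Rpl3, a core protein of the peptidyl transferase centre, 272.

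At the low end, 6 members averaged under 20 FPKM. Rpl22l1 reached 5.05, Rps10 2.22, Rpl24 1.02, Rpl39l 0.84, Rpl3l 0.10 and Rpl10l 0. Rpl10l had no read in any library, which allows at most 0.120 to 0.178 CPM by a floor of 3 counts per library, counting error only. Rps10 and Rpl24 are common ribosome components, not tissue copies. Each shares its strand with an annotated gene that overlaps it, RPS10-NUDT3 for Rps10 and Gm28037 for Rpl24. The same holds for Rpl13a (22.8 FPKM, with Gm45713) and for the highly counted Rpl19 (582 FPKM, with Gm11629) and Rpl13 (253 FPKM, with Gm20388). Reads within such overlaps can be lost or split in counting, so the levels of these 5 genes are uncertain, and the part of the overlap was not tested.

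Transcription starts of members were read from RefSeq promoters (GRCm38.p6), which held 63 of the 83 genes. They are shown because the members moved together, and because the TOP element is the feature their mRNAs are known to share. Each window holds the 40 bases before the annotated start and the 25 from it on, on the gene's strand, and capitals mark a run of C and T letters that opens with a C within 5 letters of that start. The windows lie at chr4:86857343-86857407 (Rps6, minus strand), chr9:120127726-120127790 (Rpsa, plus), chr5:115559427-115559491 (Rplp0, plus), chr9:66946046-66946110 (Rps27l, plus), chr3:28805468-28805532 (Rpl22l1, plus) and chr17:46782632-46782696 (Rpl7l1, minus).
Rps6: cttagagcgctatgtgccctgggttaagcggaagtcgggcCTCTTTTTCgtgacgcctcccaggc
Rpsa: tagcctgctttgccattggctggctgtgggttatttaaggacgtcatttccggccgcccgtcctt
Rplp0: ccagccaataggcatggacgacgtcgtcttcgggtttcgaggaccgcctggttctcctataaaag
Rps27l: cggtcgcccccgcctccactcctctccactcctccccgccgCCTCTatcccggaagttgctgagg
Rpl22l1: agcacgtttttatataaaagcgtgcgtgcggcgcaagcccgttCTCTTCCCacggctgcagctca
Rpl7l1: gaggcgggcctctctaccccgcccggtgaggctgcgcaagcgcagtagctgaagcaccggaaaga

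Rps6 carries the run exactly at its annotated start. A C followed by 4 letters that are each C or T stood exactly at the start in 13 of the 63 member genes (20.6%) and in 3.01% of all 27025 genes of the table. Within 5 letters of the start, on the transcribed strand alone, it stood in 29 members (46.0%) and 21.2% of all genes. The annotated starts need not be those used in macrophages, and a missing match says only that these letters are not in the window. In untreated Smad3fl against Smad2fl the median log2 change was −0.85 over 29 members with it and −0.94 over 32 tested members without, and with TGF-β1 −0.87 and −0.86. In MyS3KO against Smad3fl the medians were 0.62 and 0.77 untreated and 0.91 and 0.93 with TGF-β1.

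No member passed the main test for TGF-β1, which leaves library numbers out of the model, in any genotype. In Smad2fl, 73 of 81 members had negative log2 changes with a median of −0.30 (all 14261 tested genes, 0.01), and none was called at an adjusted p under 0.05 where 11.1% of all tested genes were. The median was −0.21 in MyS2KO-labelled libraries (3.41% of all genes called), −0.27 in Smad3fl (12.0% called) and −0.02 in MyS3KO (10.0% called), again with 0 members called by edgeR's quasi-likelihood test. At an unadjusted p under 0.05, 12, 2, 3 and 1 members stood in these 4 comparisons, against 24.2, 11.7, 24.7 and 21.6% of all genes, and DESeq2 called 1, 0, 0 and 0. Same-numbered treated and untreated libraries deviated together in Smad3fl and in the libraries labelled MyS2KO, which the labels do not state as a pairing, and with the number in the model 5 and 1 members were called. With the number in the model, members were also called in Smad2fl, more than in any other genotype, and in MyS3KO. Those counts are given at the end, since only some same-numbered libraries deviated together there. Without untreated Smad3fl library 2, 6 members were called in Smad3fl. For fits with the number in the model or a library left out, shares of all tested genes are not given. Those counts are thus not shown to be particular to the members.

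Rps6 shows the size of these shifts. It stood at 351, 414 and 414 CPM in untreated Smad2fl and at 314, 286 and 309.5 with TGF-β1, and the groups did not overlap. The log2 change was −0.37 ± 0.17 with an adjusted p of 0.184. In MyS3KO it stood at 284.5, 393 and 299.6 CPM untreated and 308, 317 and 307 treated, within the same range (−0.07 ± 0.17, adjusted p = 0.879). In Smad2fl, 34 of 81 members had all 3 treated below all 3 untreated libraries, beside 16.1% of all tested genes, and in MyS3KO 2 did, beside 10.8%. Whether TGF-β1 acted differently in MyS3KO and Smad3fl was tested as an interaction: the median was 0.26 over the members and 0.07 over all genes, and 0 members were called, also by DESeq2, with 0 at an unadjusted p under 0.05 (6.43% of all genes, and 0.021% called). The same interaction in the Smad2 line gave a median of 0.07 and 0 members by either criterion or tool, where 0.00701% of all genes were called and 3.44% had an unadjusted p under 0.05.

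The libraries labelled MyS2KO and the Smad2fl libraries held similar levels. Untreated, the median log2 change of the members was −0.00 and 0 were called (0.0701% of all genes called). With TGF-β1 it was 0.10 and 0 were called (0.421% of all). Only 1 member had an unadjusted p under 0.05 in the untreated comparison (8.79% of all genes), Rpl30, a large-subunit protein, named here after its value was seen (0.74 ± 0.34, adjusted p = 0.554), and 0 did with TGF-β1 (9.2% of all genes). DESeq2 called 0 in both. For Rps6 the differences were −0.09 ± 0.17 and −0.08 ± 0.17, and for Rplp0 −0.04 ± 0.23 and 0.21 ± 0.23.

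MyS3KO libraries held more ribosomal protein mRNA than Smad3fl libraries. Untreated, 48 of 81 members were called higher and 0 lower, where 8.37% of all tested genes were called higher, and the median log2 change was 0.66 against −0.03 over all genes. With TGF-β1, 74 were called higher and 0 lower (15.0% of all genes called higher), with a median of 0.92 against 0.01. All 48 were among the 74. All 3 MyS3KO libraries lay above all 3 Smad3fl libraries for 36 members untreated (10.8% of all genes) and for 77 with TGF-β1 (23.1%). Both subunits took part: 18 of 32 small-subunit and 30 of 49 large-subunit members were called untreated, and 30 and 44 with TGF-β1.

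The untreated count rests on single libraries of a group whose members spread widely. Untreated Smad3fl library 3 was the highest of its group for 75 of 81 members, at a median of 1.78 times the mean of libraries 1 and 2 (quartiles 1.59 and 1.99). The median coefficient of variation of the members was 36.8% in that group and 7.82 to 17.8% in the others. Over all tested genes it was 24.8% in that group, also the highest, and 13.5 to 21.1% in the others. Without library 3, 74 members were called higher in untreated MyS3KO, without Smad3fl library 1 30, without library 2 27, and without MyS3KO library 2 30. How the share of all tested genes called moved with these libraries is not given. The shifts in count are thus not shown to be particular to the members.

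**Figure D2:**
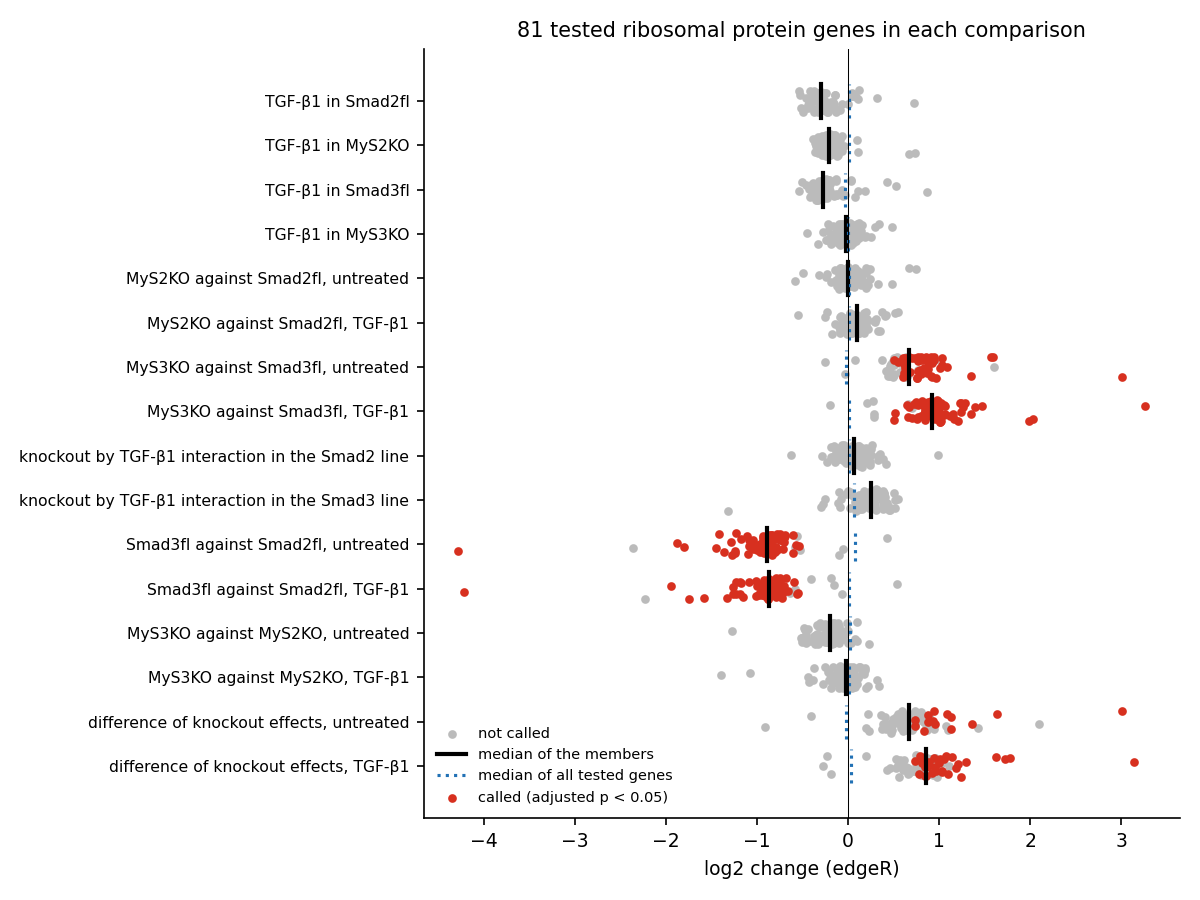
Fitted log2 change of each of the 81 tested members (points, red where called at an adjusted p under 0.05) in each comparison, with the median of the members (black line) and of all tested genes (dotted line). Members moved together below 0 in Smad3fl against Smad2fl (medians −0.89 and −0.87) and above 0 in MyS3KO against Smad3fl (0.66 and 0.92).

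The floxed groups of the lines differed from each other in the same way. In Smad3fl against Smad2fl, 72 of 81 members were called lower and 0 higher untreated, where 15.6% of all tested genes were called lower, and the median log2 change was −0.89 (all genes, 0.07). With TGF-β1 it was also 72 lower and 0 higher (13.3% of all), with a median of −0.87 (all genes, 0.01), and 71 members were called in both. All 3 Smad3fl libraries lay below all 3 Smad2fl libraries for 55 members untreated (18.3% of all genes) and for 75 with TGF-β1 (25.9%). These comparisons share the Smad3fl libraries with those of MyS3KO, so the counts are not independent, and line, litter and culture cannot be told apart from the Smad3 allele.

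The difference of the knockout effect between the lines was tested as well, a comparison added after seeing the data. It was called above 0 for 14 members untreated and 34 with TGF-β1, and below 0 for 0, where 2.08 and 3.83% of all genes were called above 0. The untreated count was 7 without MyS3KO library 2 and 63 without Smad3fl library 3, and the other 12 without Smad3fl library 2. How the share of all tested genes moved in those fits is not given.

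No member was called between MyS3KO and the libraries labelled MyS2KO. The median log2 change was −0.20 untreated and −0.03 with TGF-β1, and 0 members were called in either (5.98 and 6.69% of all genes called), also by DESeq2. At an unadjusted p under 0.05 there were 6 and 3 members, against 19.7 and 20.6% of all genes. Over the 8 groups, both Smad3fl groups had the lowest means for 78 of 81 members. All 6 Smad3fl libraries lay below all 18 others for 23 members, and 73 did so when untreated library 3 was set aside. That library was set aside after its values were seen. Matching shares of all tested genes were not computed, so these orders are not shown to be particular to the members.

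**Figure D3:**
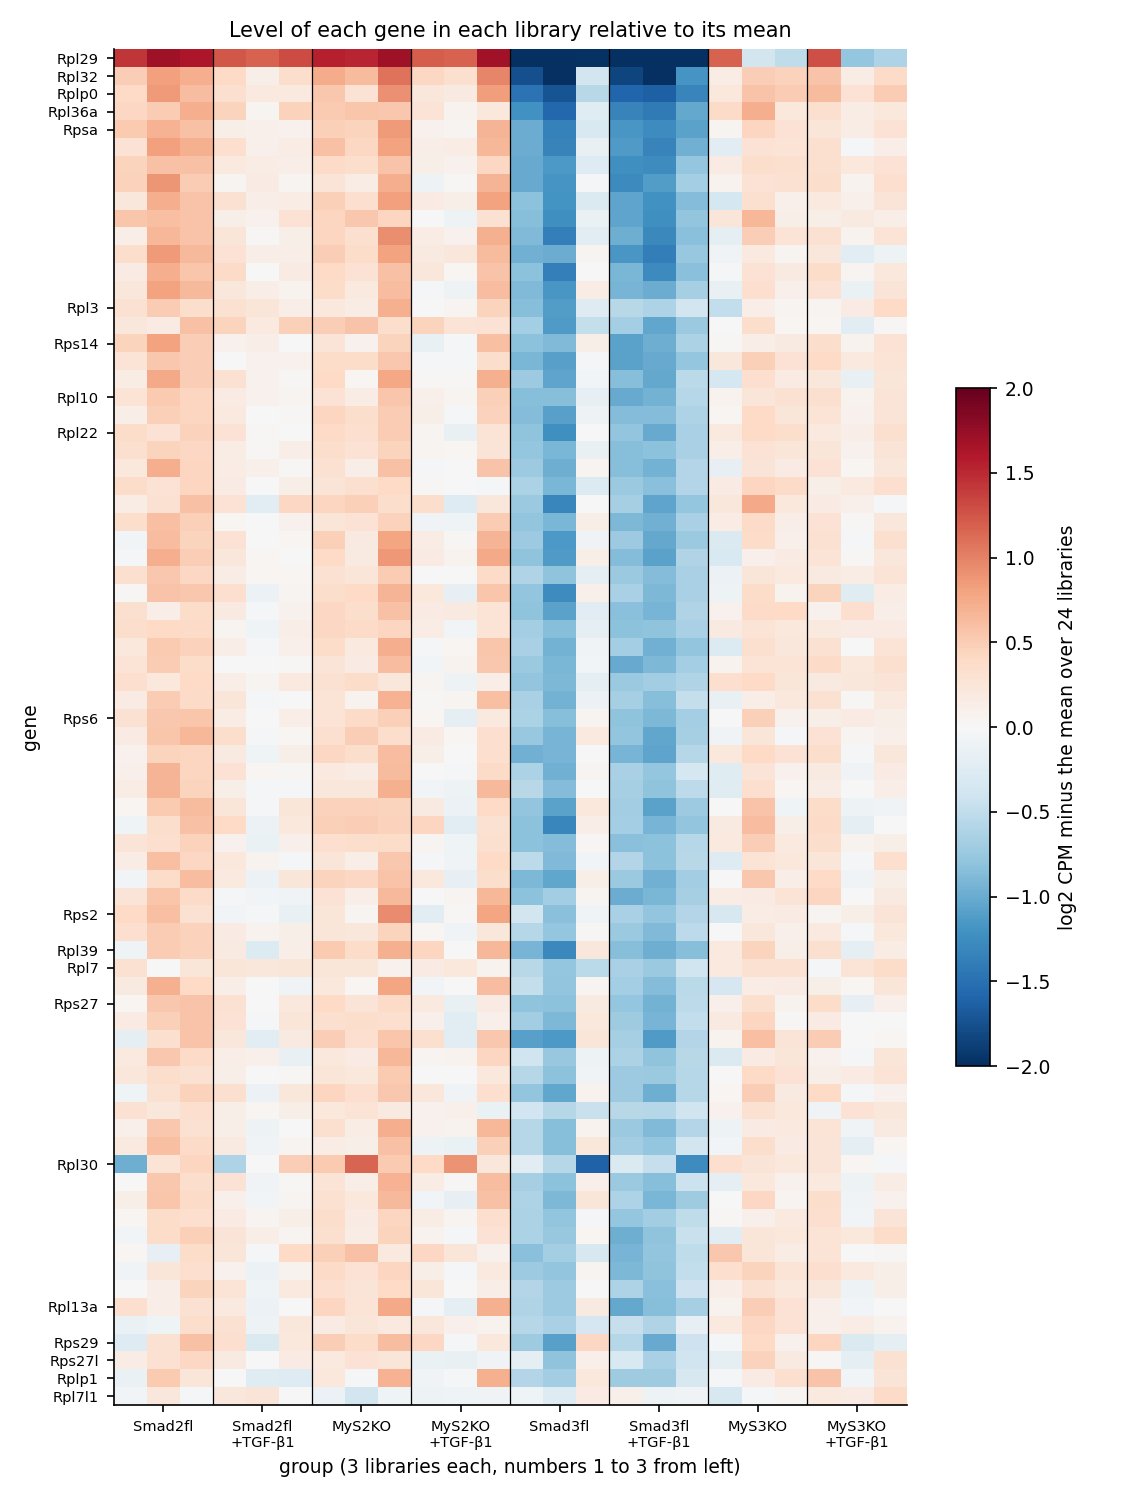
Level of members averaging over 20 FPKM in each library (1 such member is left out, and rows of genes named in the text are labelled), as log2 CPM minus its mean over the 24 libraries, with rows ordered by the log2 change in untreated Smad3fl against Smad2fl and colours clipped at ±2. The Smad3fl libraries are blue in nearly every row except untreated library 3, and Rpl29, in the top row, is also low in libraries 2 and 3 of both MyS3KO groups.

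Rps6, Rpsa and Rpl3 were chosen as representatives of the subunits, and Rpsa lay among the members with the larger changes. Rps6 stood at 184, 158 and 295 CPM in untreated Smad3fl and at 162, 152.5 and 178 with TGF-β1. The Smad2 line had 247 to 414 CPM, and among Smad3fl libraries untreated library 3 alone reached that range. Against Smad2fl it was lower by a log2 change of −0.89 ± 0.17 untreated (adjusted p = 0.000671) and −0.89 ± 0.17 with TGF-β1 (adjusted p = 0.0010). MyS3KO exceeded Smad3fl by 0.62 ± 0.17 (adjusted p = 0.0168) and 0.92 ± 0.17 (adjusted p = 0.000862), and the untreated call was lost without Smad3fl library 1 (adjusted p = 0.08615) or 2 (0.118), or without MyS3KO library 2 (0.117).

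Rpsa stood at 218, 168 and 347 CPM in untreated Smad3fl and at 450.0, 580.1 and 528 in untreated MyS3KO, with no overlap. Smad2fl had 620.0, 697 and 646. It was higher in MyS3KO by 1.09 ± 0.20 (adjusted p = 0.000768) untreated and by 1.39 ± 0.20 (adjusted p = 8.9e-05) with TGF-β1. Rpl3 stood at 161, 133 and 243 CPM in untreated Smad3fl and 205, 318 and 299.8 in MyS3KO, where library 1 lay below the highest Smad3fl library. Its untreated difference of 0.62 ± 0.20 (adjusted p = 0.0359) was lost without any one of 4 libraries, Smad3fl 1 or 2 or MyS3KO 2 or 3 (adjusted p from 0.127 to 0.194). With TGF-β1 it was 0.72 ± 0.20 (adjusted p = 0.0114), lost without Smad3fl library 2 (0.0570) or MyS3KO library 3 (0.05689).

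Rpl29, a small basic protein of the large subunit, differed by more than any other member in these 4 comparisons. It stood at 263, 317 and 298 CPM in untreated Smad2fl and at 12.4, 8.1 and 24.8 in untreated Smad3fl. In untreated MyS3KO library 1 had 220.4 CPM and libraries 2 and 3 had 75.6 and 68.4. With TGF-β1 the Smad3fl libraries had 12.5, 10.9 and 13.98 and the MyS3KO libraries 238, 57.1 and 63.6. So libraries 2 and 3 of both MyS3KO groups lay between Smad3fl and library 1, and library 1 at or within the 220.5 to 317 CPM of the Smad2 line. The fitted change was −4.28 ± 0.51 in Smad3fl against Smad2fl (adjusted p = 3.4e-06) and 3.01 ± 0.48 in MyS3KO against Smad3fl (adjusted p = 0.000232), with −4.22 ± 0.51 (6.6e-06) and 3.26 ± 0.49 (0.000136) under TGF-β1.

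Rpl32, a large-subunit protein, stood at 49.0, 40.2 and 128 CPM in untreated Smad3fl against 184, 234 and 228 in MyS3KO and 232, 293 and 274 in Smad2fl. Its log2 changes were 1.57 ± 0.31 and 2.03 ± 0.31 in MyS3KO against Smad3fl, and −1.88 ± 0.31 and −1.95 ± 0.31 in Smad3fl against Smad2fl (adjusted p from 0.000128 to 0.00136). Rpl36a, an X-linked large-subunit protein near the exit site for tRNA, stood at 35.9, 27.9 and 70.0 CPM in untreated Smad3fl and 108, 137 and 95.9 in MyS3KO. It changed by 1.35 ± 0.22 and 1.47 ± 0.23, and by −1.45 ± 0.22 and −1.58 ± 0.23, in the same order (adjusted p from 4.6e-05 to 0.000342).

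Rplp0 stood at 887, 1220 and 1038 CPM in untreated Smad2fl, at 242, 204 and 458 in untreated Smad3fl and at 783, 996 and 955 in untreated MyS3KO. With TGF-β1, Smad3fl had 223, 218 and 270 and MyS3KO 1043, 822 and 962. All 6 Smad3fl libraries lay below all others. The log2 change was −1.80 ± 0.24 (adjusted p = 1.4e-05) and −1.74 ± 0.24 (3.2e-05) against Smad2fl, and MyS3KO exceeded Smad3fl by 1.60 ± 0.24 (0.000134) and 1.99 ± 0.24 (1.6e-05).

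Pseudogenes nearly identical to Rplp0 were counted in the same Smad3fl libraries. A near copy was defined as a pseudogene whose transcript matches a member's transcript at 95% identity or more over at least 90% of its length, and 565 near copies were found for 77 of the 83 members, with reads on 421. For Rplp0 they are Gm8730, Gm9625 and Gm14165. Gm8730 has 12 differences from the 954 coding bases of Rplp0, and Gm8210, a near copy of Rpl29, has 3 in 483. The 120 coding bases with the most differences are shown for both pairs, because reads are 150 bases long and such stretches decide to which locus a read is assigned. They come from GENCODE M21 transcripts on GRCm38, at chr5:115561108-115561227 (Rplp0, plus strand), chr8:102865352-102865471 (Gm8730, minus), chr9:106431147-106431266 (Rpl29, plus) and chr1:43189336-43189455 (Gm8210, plus), and capitals mark letters that differ within a pair.
Rplp0: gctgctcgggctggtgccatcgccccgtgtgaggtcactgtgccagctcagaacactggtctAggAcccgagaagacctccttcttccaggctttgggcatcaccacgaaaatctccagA
Gm8730: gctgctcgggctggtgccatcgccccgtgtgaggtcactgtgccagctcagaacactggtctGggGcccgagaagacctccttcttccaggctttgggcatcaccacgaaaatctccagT
Rpl29: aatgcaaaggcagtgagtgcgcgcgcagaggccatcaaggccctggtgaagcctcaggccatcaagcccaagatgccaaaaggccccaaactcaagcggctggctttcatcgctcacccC
Gm8210: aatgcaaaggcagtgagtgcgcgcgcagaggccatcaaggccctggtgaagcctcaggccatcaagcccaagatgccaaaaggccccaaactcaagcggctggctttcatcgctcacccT

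The 3 differing letters in the Rplp0 stretch and the 1 in the Rpl29 stretch are all that separate the copies there. Gm8730 stood at 145, 130 and 255 CPM in untreated Smad3fl and 135, 132 and 169 with TGF-β1, and at 0.42 to 2.05 CPM in the 18 other libraries, MyS3KO included. Gm9625 stood at 37.8 to 67.9 CPM in Smad3fl and at 0.69 at most elsewhere. Near copies took 227 ± 84.9 CPM beside 301 ± 137 CPM of Rplp0 itself in untreated Smad3fl, and 187 ± 26.0 beside 237 ± 28.5 with TGF-β1. Rplp0 and its near copies summed to 528 ± 222 and 424 ± 54.5 CPM in Smad3fl, where the 6 other groups averaged 794 ± 39.9 to 1050 ± 167. Single libraries overlapped, since untreated Smad3fl library 3 summed to 782 CPM and the lowest of the others to 767. With these reads added, MyS3KO exceeded Smad3fl by 0.80 (adjusted p = 0.0194, edgeR) and 1.15 (0.00134), and Smad3fl lay below Smad2fl by −1.01 (0.00232) and −0.92 (0.00623), each less than for Rplp0 alone. The share of Rplp0-like reads on pseudogene loci thus set the Smad3fl libraries apart from MyS3KO as well as from the Smad2 line. The reads themselves were not analysed here, so whether they come from the pseudogenes or from a variant of Rplp0 cannot be told apart.

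Gm8210 followed another pattern, that of the low Rpl29 libraries. It had 2.66 to 8.07 CPM in the 6 Smad3fl libraries and 5.38 to 7.32 in libraries 2 and 3 of both MyS3KO groups, but 0.06 and 0 in the MyS3KO libraries numbered 1 and 0.10 at most in the Smad2 line. With the counted reads of all near copies added, Rpl29 summed to 22.2 ± 11.6 CPM in untreated Smad3fl. The sums were 131.5 ± 77.9 CPM in untreated MyS3KO and 294 ± 28.0 in untreated Smad2fl. Reads lost in assignment between such loci would not appear in these sums, and their part was not tested. Rps4l, which the table lists as a transcribed processed pseudogene and which is no member, had 5.35 to 11.6 CPM in the 12 libraries of the Smad2 line and 0.20 to 2.27 in the 12 of the Smad3 line.

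Without those of Rplp0, near copies summed to 145 ± 46.4 CPM in untreated Smad3fl and 128 ± 14.04 with TGF-β1, against group means of 206 to 240.1 elsewhere. The libraries overlapped, since 1 Smad3fl library reached 198 CPM and the lowest of the others had 195. Among 110 tested near copies, 36 were called lower and 7 higher in untreated Smad3fl against Smad2fl, with a median of −0.83, where 15.6% of all genes were called lower and 17.7% higher. Most of the 110 were not called. Adding all reads of near copies to their member left 51 and 76 members called in MyS3KO against Smad3fl and 74 and 73 in Smad3fl against Smad2fl. Shares of all tested genes called after that addition are not given.

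**Figure D4:**
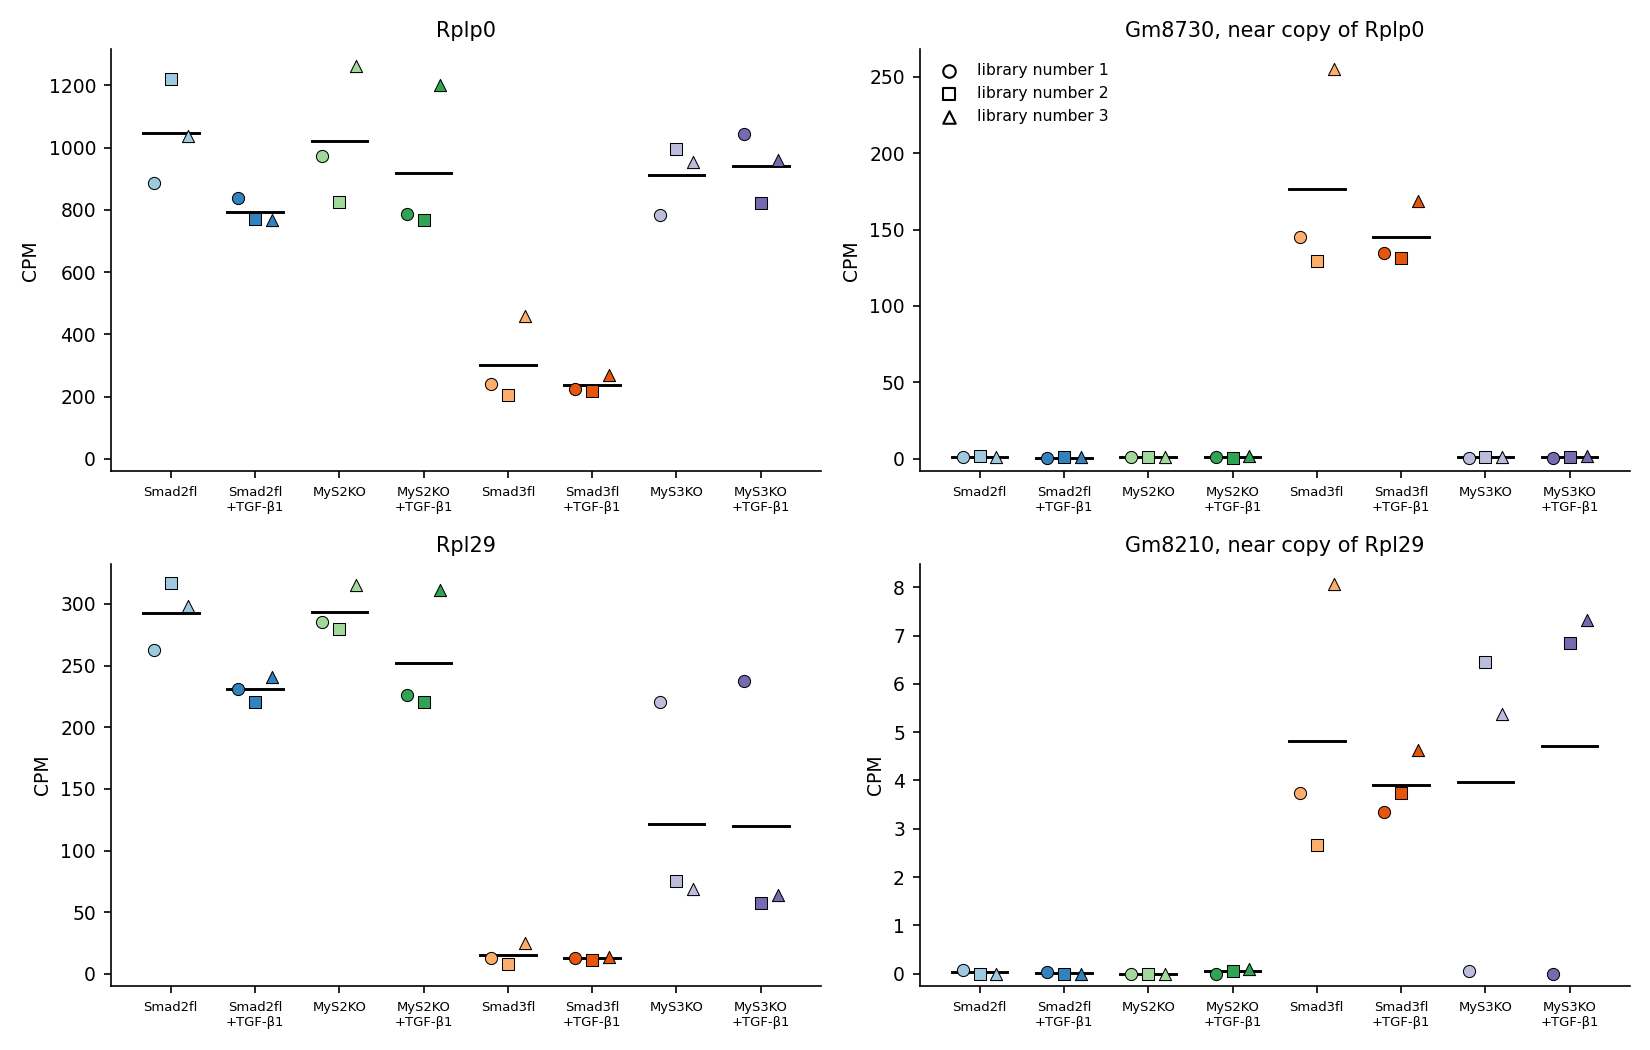
CPM of Rplp0 and its near copy Gm8730 (top) and of Rpl29 and its near copy Gm8210 (bottom) in each library, with group means as lines. Gm8730 exceeds 2.05 CPM in Smad3fl only, while Gm8210 exceeds 0.10 CPM in Smad3fl and in libraries 2 and 3 of MyS3KO.

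Paralogs were followed beside their common copies. Rps27l, a p53-inducible relative of the small-subunit protein Rps27, stood at 64.1, 71.8 and 77.6 CPM in untreated Smad2fl and at 50.9, 33.2 and 62.3 in Smad3fl. It was called lower there (−0.54 ± 0.18, adjusted p = 0.0258, and −0.56 ± 0.18, adjusted p = 0.0280 with TGF-β1), but not under total-count scaling (adjusted p = 0.0906 and 0.128). Leaving out Smad3fl library 2 (0.163 and 0.127) or Smad2fl library 3 (0.0837 and 0.0686) ended both calls, leaving out untreated Smad2fl library 2 (0.0654) the first, and Smad2fl library 1 (0.07594) or Smad3fl library 3 (0.0506) with TGF-β1 the second. Its excess in MyS3KO with TGF-β1 (0.51 ± 0.18, adjusted p = 0.0420) was lost under total-count scaling (0.134) and without 5 of the 6 libraries in turn, MyS3KO library 2 being the exception (adjusted p up to 0.206). Rps27 itself changed by −0.79 ± 0.21 (adjusted p = 0.00712) and −0.91 ± 0.21 (0.00381) in Smad3fl against Smad2fl, and the first call was lost without Smad3fl library 2 (0.05404).

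Rpl7l1, a nucleolar relative of the large-subunit protein Rpl7, lay between 47.5 and 80.4 CPM in all libraries. Smad3fl had 57.9, 51.4 and 69.1 CPM untreated, overlapping Smad2fl (59.1, 71.6 and 60.5). Its log2 change was −0.10 ± 0.13 (adjusted p = 0.579). Rpl7 was lower, at 213, 182 and 214 CPM against 384, 314 and 369 (−0.81 ± 0.12, adjusted p = 5.7e-05). Rpl22l1, the paralog that substitutes for Rpl22, had 1.75 to 4.98 CPM everywhere and −0.06 ± 0.30 in the same comparison (adjusted p = 0.898), where Rpl22 changed by −0.97 ± 0.20 (0.000933). Rpl39l, a germline copy of the exit-tunnel protein Rpl39, reached 2.71 CPM at most and its change of −2.37 ± 1.12 was not called (adjusted p = 0.106). The differences between a paralog and its common copy were not tested as such.

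**Figure D5:**
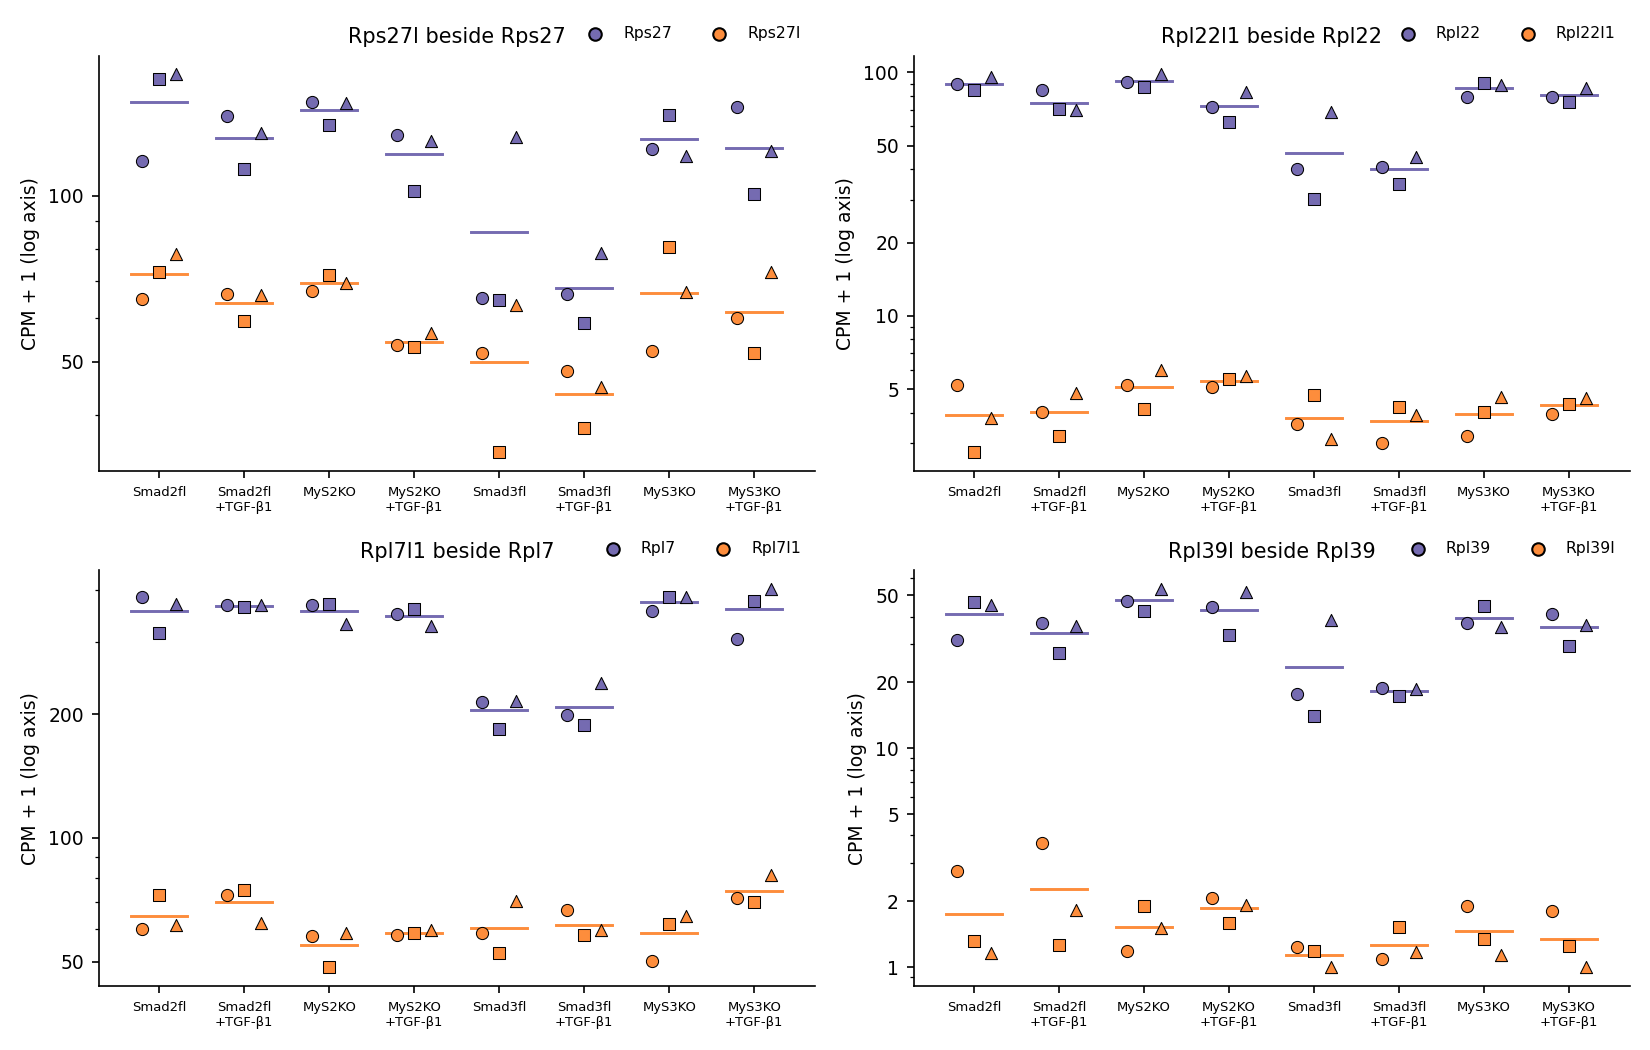
CPM plus 1, on a log axis, of 4 paralogs (orange) and their common copies (purple) in each library, with group means as lines and points shaped by library number as in the plot of shares. Rpl7 and Rpl22 are lower in Smad3fl, while the Rpl7l1 and Rpl22l1 points of Smad3fl overlap those of other groups.

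A few common members were not called. In untreated Smad3fl against Smad2fl they were Rpl13a, Rpl24, Rpl30, Rplp1, Rps10 and Rps29, beside the paralogs Rpl22l1, Rpl39l and Rpl7l1. Rps2 took the place of Rpl13a with TGF-β1. Rplp1, the acidic stalk protein, changed by −0.53 ± 0.25 (adjusted p = 0.105). Rpl30 went against the libraries' common order: untreated Smad3fl library 3 was its lowest value of all, 17.3 CPM, beside 45.6 and 35.6 in libraries 1 and 2.

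Genes around the ribosome were followed as lists. Outside the name rule, Rack1, a small-subunit scaffold (−0.83 ± 0.19, adjusted p = 0.00211), and Fau, a ubiquitin-like fusion to a small-subunit protein (−0.52 ± 0.19, 0.0400), were lower in untreated Smad3fl against Smad2fl. Of 20 elongation factors and other TOP mRNAs, 9 were lower and 1 higher there (median −0.35), where 15.6% of all genes were called lower and 17.7% higher. Eif3f, an initiation factor subunit, changed by −1.66 ± 0.24 (2.6e-05) and Eef1b2, which recharges the elongation factor eEF1A, by −1.10 ± 0.21 (0.000467), while Hnrnpa1, an RNA-binding protein of splicing, was higher by 0.96 ± 0.17 (0.000207). In MyS3KO against Smad3fl, 8 were higher and 1 lower untreated, and 10 and 1 with TGF-β1, where 8.37 and 15.0% of all genes were called higher.

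Among factors that make ribosomes, those called mostly had the opposite sign. Of 54 Pol I and ribosome assembly genes, 18 were higher and 1 lower in untreated Smad3fl against Smad2fl (median 0.32), where 17.7% of all tested genes were called higher and 15.6% lower. In untreated MyS3KO against Smad3fl, 0 were higher and 18 lower (median −0.41), where 8.37% of all genes were called higher and 9.38% lower. The other members of the list did not pass. Riok2, a kinase of late small-subunit maturation, was higher in Smad3fl by 1.33 ± 0.28 (0.0013), the box H/ACA pseudouridine synthase Dkc1 by 1.23 ± 0.29 (0.0026), the box C/D protein Nop58 by 1.18 ± 0.27 (0.0023) and nucleolin, Ncl, by 1.03 ± 0.21 (0.0011). Among 21 tested mTORC1, MYC and translation repressor genes 4 were higher and 8 lower in untreated Smad3fl against Smad2fl. The share called higher was near the 17.7% of all tested genes, and the share called lower was above their 15.6%. Myc, which drives transcription of ribosome genes, was higher in Smad3fl by 1.85 ± 0.28 (adjusted p = 5.8e-05), its antagonist Mxi1 by 1.54 ± 0.27 (0.000227) and Larp4, a poly(A)-binding relative of LARP1, by 1.21 ± 0.27 (0.0019), while Deptor, an mTOR inhibitor, was lower (−1.90 ± 0.58, 0.0153), as were the kinase Mtor itself (−0.66 ± 0.13, 0.000794), Larp1 (−0.57 ± 0.14, 0.00463) and Maf1, a repressor of RNA polymerase III (−0.82 ± 0.24, 0.0123).

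Of 77 tested mitochondrial ribosomal protein genes, 26 were lower and 1 higher in untreated Smad3fl against Smad2fl (median −0.44), where 15.6% of all genes were called lower and 17.7% higher. In untreated MyS3KO against Smad3fl 9 were higher and 1 lower (median 0.23), a share near the 8.37% of all genes called higher. Of 7 tested snoRNA host genes, whose TOP transcripts carry small nucleolar RNAs in introns, 0 were called by edgeR in either comparison. Their medians were 0.30 and 0.23.

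Transcript length moved with the same groups. The members are short, and 1614 other protein-coding genes with 500 to 1000 bases behind their FPKM had a median log2 change of −0.25 in untreated Smad3fl against Smad2fl, where 60 members of that length had −0.91, and genes over 4000 bases had 0.25. In MyS3KO against Smad3fl these other genes had medians of 0.12 and 0.27, and the 60 members 0.69 and 0.95. With a trend on that length removed from each library, 52 and 71 members were called in MyS3KO against Smad3fl and 70 and 69 in Smad3fl against Smad2fl. The shares of all tested genes called in that fit are not given, so these counts do not set the members apart from other genes. The nuclear RNA Malat1 stood at 1976, 2692 and 1118 CPM in untreated Smad3fl, where library 3 with the most ribosomal protein mRNA was lowest, and at 809 to 2079 in the 18 libraries of other groups. Its part, and that of RNA quality, was not tested.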

How the data were processed

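RNA selected for poly(A) was sequenced as 150-base pairs, and the deposited table gives read counts per gene and FPKM, both made by the authors. Per the submitters' processing notes, TopHat2 2.0.9, Cufflinks 2.1.1, HTSeq 0.6.1 and the builds mm10 and GRCm38.p6 were used. The sources used here do not give which tool made which value, or how strand was handled. The length behind the deposited FPKM differs from the table's gene length. No column was left unused (0), and no libraries were identical (0 pairs).

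Counts were tested with edgeR 4.0.16 (R 4.3.3): TMM scaling, the filterByExpr filter over the 8 groups, glmQLFit and glmQLFTest on all 24 libraries, and Benjamini-Hochberg adjustment over 14261 genes, with a call at an adjusted p under 0.05. The fit had 16 residual and 6.07 prior degrees of freedom and a median biological coefficient of variation of 21.2%. Depth was 16868501 to 24918582 counted reads per library, and 3 counts, the floor used, equal 0.120 to 0.178 CPM. Alternatives used DESeq2 1.42.0, other scalings, filters and offsets, a replicate block and left-out libraries. Near copies were found with blastn 2.17.0 (95% identity over 90% of pseudogenes of at least 150 bases). The model was tested on simulated data.

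The members and lists were chosen with earlier results of these data known. Values of single libraries, in some of the groups, were given for Rps6, Rplp0, Rpsa and Rpl3, for paralogs, and for the 4 called members with the largest change per comparison. For Rpl22l1 only the range was given, and for Rpl39l only the highest value. Same-numbered treated and untreated libraries deviated together from their group means in MyS2KO-labelled libraries (r = 0.254, 0.334 and 0.55 for numbers 1 to 3) and Smad3fl (0.539, 0.417 and 0.416), which is the only source of that pairing. The highest r between different numbers was 0.294 in the former and −0.111 in the latter. Values of 1 member and of some list genes are not reported here.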

Additional observations from a re-analysis of the deposited data

Results flagged for a closer look

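The effect of the knockout genotype on ribosomal protein mRNAs differed between the Smad3 line and the Smad2 line, a comparison added after seeing the data. Taking MyS3KO against Smad3fl minus MyS2KO-labelled against Smad2fl libraries, 14 of 81 members were called higher and 0 lower untreated, and 34 higher and 0 lower with TGF-β1, by edgeR's quasi-likelihood test. Of all tested genes, 2.08 and 3.83% were called higher.

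Untreated, the difference in log2 change was 3.01 ± 0.64 (SE) for Rpl29 (adjusted p = 0.0101, edgeR), 1.64 ± 0.33 for Rplp0 (0.00742), 1.36 ± 0.31 for Rpl36a (0.0154) and 1.09 ± 0.28 for Rpsa (0.0277). With TGF-β1 it was 3.13 ± 0.65 for Rpl29 (0.00737), 1.78 ± 0.33 for Rplp0 (0.00395), 1.72 ± 0.43 for Rpl32 (0.0200), 1.62 ± 0.31 for Rpl36a (0.00475), 1.18 ± 0.28 for Rpsa (0.0155) and 0.997 ± 0.25 for Rps6 (0.0191). Rplp0 reads on near copies bear on its values: with them added, MyS3KO exceeded Smad3fl by 0.80 and 1.15, against 1.60 and 1.99 without. Smad2 was not lower in the libraries labelled MyS2KO, so what the Smad2 line contributes is the difference between labelled groups. The untreated count was 7 without MyS3KO library 2 and 63 without Smad3fl library 3, and with TGF-β1 it was 12 without Smad3fl library 2. Matching shares of all tested genes for those fits are not given. Line and knockout effect cannot be told apart from the Smad3fl libraries, which enter every one of these values.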

How the results depend on the processing

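With 1 Smad3fl library per treatment, number 3, chosen after its values were seen, 2 and 35 members were called in MyS3KO against Smad3fl, 14 and 30 in Smad3fl against Smad2fl, and 0 and 11 in the difference between the lines. The lone library was assumed to vary like the other groups, and fewer calls follow from the choice and from its n of 1, so these counts say nothing of whether the calls hold. Under the other alternatives, counts in Smad3fl against Smad2fl and in MyS3KO against Smad3fl with TGF-β1 stayed within 1.5 times their value. Without both Smad3fl libraries numbered 3, untreated MyS3KO against Smad3fl gave 74 and the differences 63 and 54. With no low-count filter, TGF-β1 gave 4 members in Smad2fl and 1 in Smad3fl, untreated MyS2KO-labelled against Smad2fl 1, MyS3KO against MyS2KO-labelled 1 and 1, and the differences 33 and 60. DESeq2 gave 1 for TGF-β1 in Smad2fl and 30 for the untreated difference. For the alternatives here and below, shares of all tested genes called are not given. Changes in these counts are thus not shown to be particular to the members.

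With the replicate block, TGF-β1 gave 20, 1, 5 and 1 members in Smad2fl, MyS2KO-labelled, Smad3fl and MyS3KO libraries, and the untreated difference 28. In Smad2fl same-numbered libraries had r of 0.0415, 0.224 and 0.258 for numbers 1 to 3, and the highest r between different numbers was 0.073. In MyS3KO the values were 0.493, 0.0731 and 0.415, and the highest between different numbers 0.4. Only some same-numbered libraries thus deviated together in these 2 genotypes, and the labels state no pairing. The block moved no other count by over 1.5 times.

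Leaving out 1 library gave 27 to 74 in MyS3KO against Smad3fl untreated and 57 to 74 with TGF-β1, 53 to 75 and 57 to 72 in Smad3fl against Smad2fl, 7 to 63 and 12 to 47 in the differences, 0 to 6 for TGF-β1 in Smad3fl, and 0 to 1 in both comparisons of MyS3KO with MyS2KO-labelled libraries. The other counts stayed at 0.

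The share of reads by the TMM-scaled total was 2.33% in untreated Smad2fl and, with TGF-β1, 0.982% in Smad3fl, so these 2 values differ in treatment too. Single libraries had 0.879 to 1.63% in Smad3fl and 1.77 to 2.61% elsewhere by that total. As a share of summed FPKM the members took 4.17, 3.73, 4.26, 3.80, 2.40, 2.26, 3.92 and 3.92% in Smad2fl, MyS2KO-labelled, Smad3fl and MyS3KO, each untreated then treated. Leaving out 1 library gave shares of 2.14 to 2.23, 1.81 to 1.92, 2.08 to 2.28, 1.79 to 2.03, 1.02 to 1.32, 1.04 to 1.14, 1.85 to 2.17 and 1.93 to 2.09% in that order.

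Of 1088 recomputed log2 changes of named members, 1070 kept their direction. The 18 that did not belong to Rpl22l1, Rpl7l1 and Rps27, none of them called. For Rpl22l1 in untreated Smad3fl against Smad2fl they were 0.0453 (total-count scaling), 0.0232 and 0.105 (gene and FPKM length offsets) and 0.0749 (without both libraries numbered 3), and leaving out 1 library gave −0.331 to 0.259. With TGF-β1 they were 0.00432 (FPKM length) and, without 1 library, −0.340 to 0.0443. In untreated MyS3KO against Smad3fl they were −0.0372 (FPKM length) and −0.0711 (without both), and −0.0957 to 0.335 without 1 library. For Rpl7l1 they were 0.0126 (total-count scaling) and 0.113 (library 3 alone) in the first comparison. In the last they were 0.101 (without both) and −0.131 to 0.0937 (without 1 library), and Rps27 gave −0.00283 with library 3 alone. The cause was not tested. Total-count scaling moved the median of all genes from 0.07 to 0.19 and from 0.01 to 0.15 in Smad3fl against Smad2fl.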
